A study of Mus musculus with 2 samples.

Results

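Foxp3 regulatory T cells were taken from 2 single-cell libraries of mouse tumours, one from the cepharanthine group (CEP) and one from the vehicle group (Vehicle, spelled "Vehide" in its title). A cell barcode was a member if it had at least 200 detected genes and at most 15% mitochondrial transcripts, at least 1 molecule of Foxp3 and at least 1 of Cd3d, Cd3e and Cd3g together, no more than 3 of the macrophage genes C1qa, C1qb and C1qc, and fewer than 5 of the keratins Krt8 and Krt18. Molecules were counted by their unique molecular identifiers (UMIs). The members were thus chosen by their own Foxp3, Cd3, C1q and keratin UMIs. The rule found 85 members among 19610 deposited barcodes, 30 of 9621 in the CEP library and 55 of 9989 in the Vehicle library. Tumours were digested with collagenase D and DNase I, and immune cells were pulled out by CD45 antibody on magnetic beads before droplet capture. Mouse strain, age, tumour model, dose and duration of treatment are not given in the sources used here. The design names 5 biological replicates per group, but cells carry no animal label, so each group is 1 library and no test between groups was possible. Intervals cover counting error only, and differences between animals are not in them. Those of summed UMIs treat each UMI as an independent draw, so differences between member barcodes are not in them either.

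Regulatory T cells are CD4 T cells that restrain other immune cells, and the transcription factor Foxp3 is required for their identity. They carry the high-affinity interleukin-2 receptor chain Il2ra, by which they bind and consume interleukin-2, and the inhibitory receptor Ctla4, which removes costimulatory ligands from antigen-presenting cells. In tumours they are known for strong expression of TNF receptor family members and for limiting cytotoxic T cell responses. Cepharanthine is a plant alkaloid, and the series title connects it with immunogenic cell death in tumours through protein kinase C zeta, NF-kB and PARP1.

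Most members carried further regulatory T cell transcripts. Foxp3 chose the cells, so its values are a description: the UMI count per member ran from 1 over a median of 3 to 9 in CEP and from 1 over 2 to 10 in Vehicle, and 6 CEP and 21 Vehicle members had exactly 1. Foxp3 lies on the X chromosome at chrX:7573644-7595245 (mm10, plus strand). Of the other defining markers, Ikzf2, which encodes the transcription factor Helios (chr1:69531214-69687245, minus strand), had a UMI in 26 of 30 CEP and 41 of 55 Vehicle members. Il2ra (chr2:11642807-11693193, plus strand) had one in 23 and 32 members. Tnfrsf4, the costimulatory receptor OX40 (chr4:156013843-156016612, plus strand), had one in 27 and 47, and Klrg1, an inhibitory lectin-like receptor of differentiated T cells (chr6:122270596-122282882, minus strand), in 12 and 17. At least 2 of these 4 markers were seen in 27 of 30 CEP and 44 of 55 Vehicle members. Tnfrsf4 is among the markers counted and was also common in Cd4 T cells without Foxp3, as given below. The 4 members with none of the 4 markers were Vehicle barcodes with a median depth of 1338 UMIs and a median of 1 Foxp3 UMI.

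The label was also set against barcodes that should lack these genes. Foxp3 had a UMI in 0.267% of 4491 CEP and 0.266% of 4896 Vehicle macrophage barcodes (10 or more C1q UMIs and no Cd3), whose median depths were 9952 and 11187 UMIs, and Ikzf2 in 3.39% and 3.27% of them. Members were shallower, with medians of 2873.5 and 2305 UMIs. The macrophage set, which has no Cd3, held 12 CEP and 13 Vehicle barcodes with Foxp3. A further 38 and 33 barcodes with 10 or more C1q UMIs held both Foxp3 and Cd3 and were left out of it. Its low Foxp3 rate was thus set in part by its definition. Barcodes just inside the Foxp3 limit still held the other markers: among members with 1 Foxp3 UMI, Tnfrsf4 was seen in 6 of 6 CEP and 15 of 21 Vehicle barcodes and Ikzf2 in 5 and 14. Among kept barcodes within the same C1q and keratin limits, with Cd3 but no Foxp3, Ikzf2 was seen in 46 of 233 CEP and 59 of 341 Vehicle barcodes. Tnfrsf4 was seen in 71 and 90 of these barcodes and Klrg1 in 5 and 4. In the Cd4 T cells without Foxp3 that are compared below, Tnfrsf4 was seen in 21 of 26 CEP and 27 of 36 Vehicle barcodes. Ikzf2 was seen in 6 and 2 of them. A Tnfrsf4 UMI thus did little to separate members from these Cd4 T cells. Cd4, the coreceptor of the lineage, had a UMI in 14 CEP and 19 Vehicle members, and Cd8a or Cd8b1 in 1 and 7. Gamma-delta T cell genes were at 0 UMIs in all members (all 8 of the 11 listed genes that are in the files, Trdc among them).

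**Figure D1:**
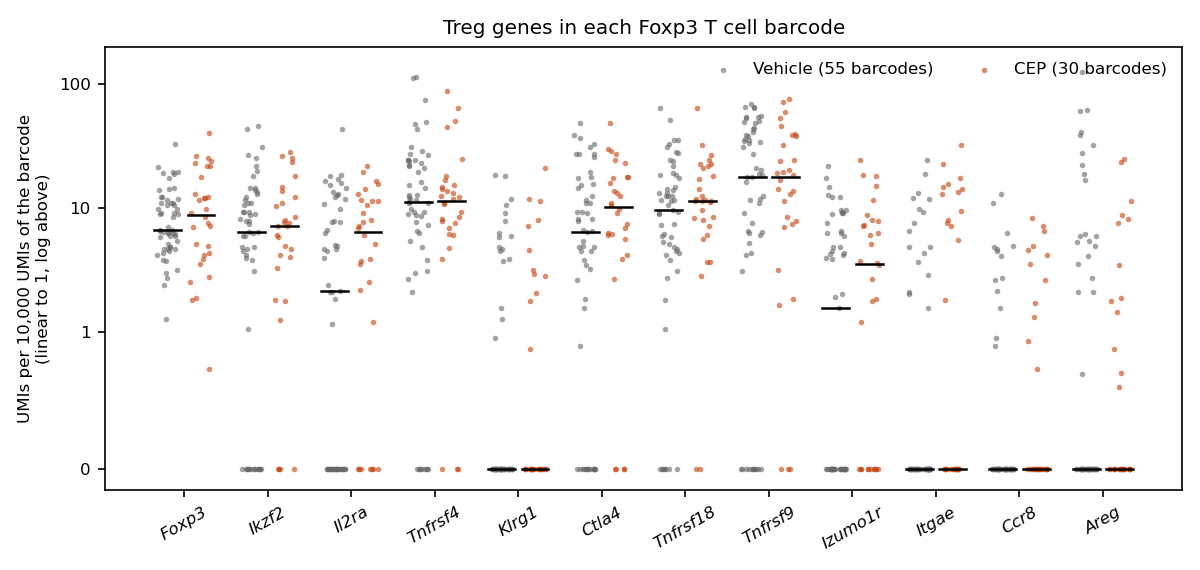
UMIs of 12 genes per 10,000 UMIs of each member barcode (vertical axis, linear up to 1 and logarithmic above), by gene along the horizontal axis; each point is 1 barcode, grey for Vehicle (55) and orange for CEP (30), and black bars are medians. The libraries overlap for each gene, and the medians of Klrg1, Itgae, Ccr8 and Areg are 0 in both.

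Myeloid RNA was present in some members, and it bears on every summed level below. Of the members, 14 barcodes, 6 CEP and 8 Vehicle, held 10 or more UMIs of Lyz2, Csf1r, S100a8, S100a9 and Cd74 together. These 14 barcodes contributed 43.1% of all CEP member UMIs and 31.0% of all Vehicle member UMIs, with median depths of 11005.5 and 6695 UMIs against 2659 and 2152 in the other 24 and 47. The deepest Vehicle member, with 14378 UMIs, held 1018 UMIs of the neutrophil gene S100a9 and 415 of Retnlg, together with 15 Cd3 UMIs. Summed over members, the 10 neutrophil genes stood at 2659 UMIs per 1000000 summed UMIs (CPM) in CEP and 13986 in Vehicle, and at 579 and 709 CPM without the 14 barcodes. The 12 macrophage genes stood at 2659 and 2488 CPM, and at 761 and 1556 without them. Any of these genes still had a UMI in 22 of the 24 CEP and 44 of the 47 Vehicle members left. Leaving out the 14 barcodes thus did not free the members of macrophage RNA. The 12 genes of the dendritic cell list, which holds Cd74 and class II genes, stood at 1009 and 2594 CPM in 19 CEP and 41 Vehicle members, and at 432 and 970 CPM without the 14 barcodes. The median log2 ratio of CEP over Vehicle of its 4 genes with at least 30 UMIs was -1.82, while 7 of the 12, Flt3 and Xcr1 among them, were at 0 UMIs. At 0 UMIs were also 7 of 9 epithelial and 7 of 8 fibroblast genes. Leaving out these barcodes was chosen after the data were seen, and the counts of called genes and list medians are given below with and without them. The genes that marked them are also in the lists above: S100a8 and S100a9 (neutrophil), Lyz2 and Csf1r (macrophage) and Cd74 (dendritic cell). The lower levels of these lists without the 14 barcodes were thus set in part by the choice.

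**Figure D2:**
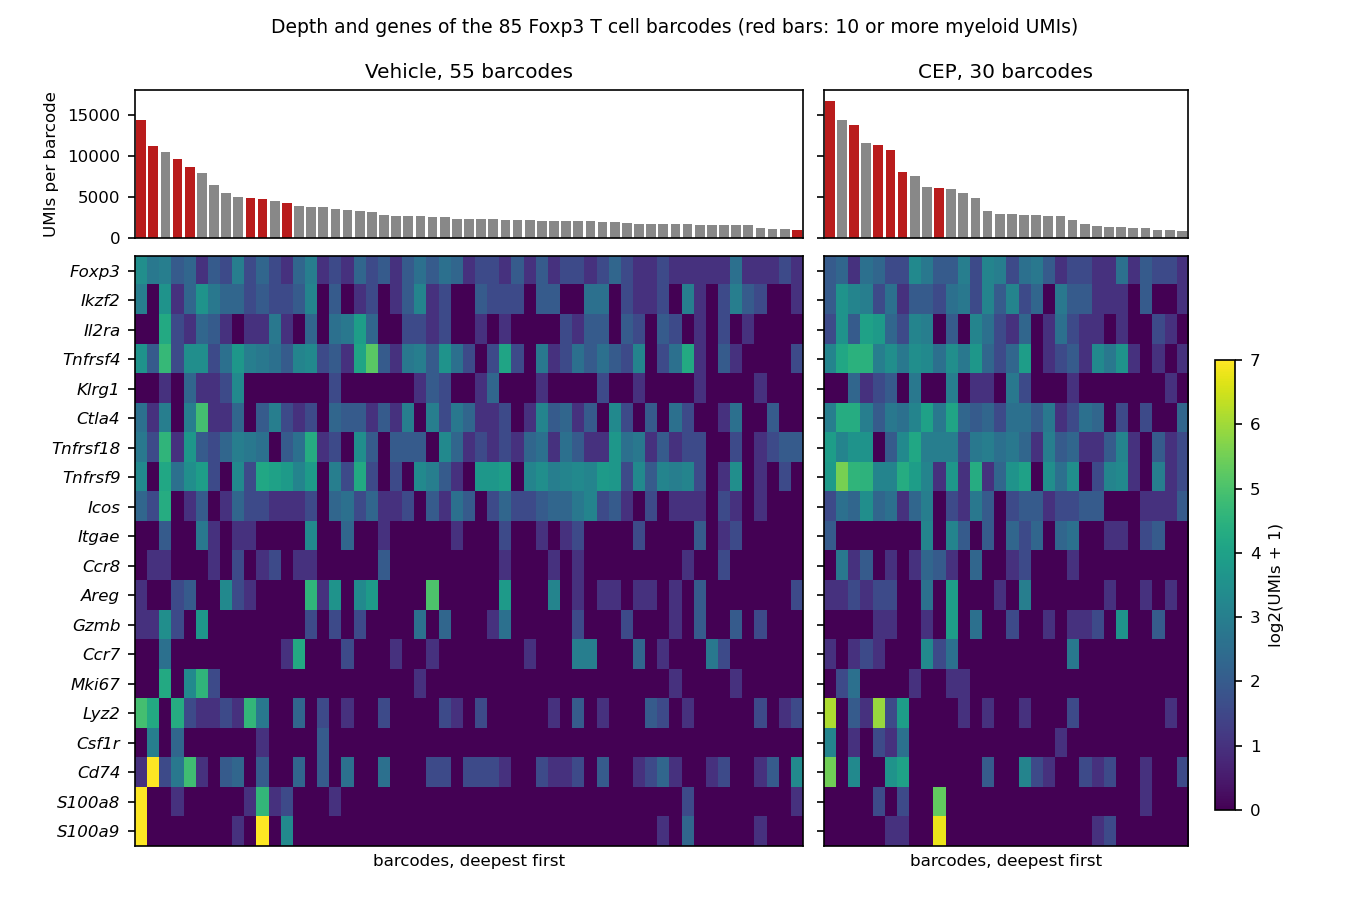
The 55 Vehicle (left) and 30 CEP (right) member barcodes from the deepest to the shallowest; upper bars give UMIs per barcode, red where 10 or more myeloid UMIs were present, and the lower panel gives log2(UMIs + 1) of 20 genes, with values above 7 in the last colour. Marker genes are spread over all depths, and the myeloid genes of the lowest 5 lines are concentrated in a few mostly deep barcodes.

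Regulatory T cells made up a smaller share of the CEP library. They were 30 of 9544 kept barcodes (0.314%, exact Clopper-Pearson 95% interval 0.212 to 0.448%) in CEP and 55 of 9932 (0.554%, 0.417 to 0.720%) in Vehicle. The ratio was 0.568, with an interval of 0.364 to 0.885. All T cell barcodes, taken as those with at least 2 Cd3 UMIs under the same limits, were also fewer, at 1.93% of kept barcodes in CEP and 3.09% in Vehicle (ratio 0.624). Within T cells the regulatory share was 27 of 184 (14.7%, 9.90 to 20.6%) in CEP and 51 of 307 (16.6%, 12.6 to 21.3%) in Vehicle, a ratio of 0.883 whose interval of 0.575 to 1.36 holds 1. Cd8 T cells made up 25.5% and 23.5% of T cell barcodes.

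The size of this difference depended on the C1q limit. Without the C1q and keratin limits, 81 CEP and 98 Vehicle barcodes held Foxp3 and Cd3, which is 0.849% and 0.987% of kept barcodes, a ratio of 0.860 with an interval of 0.642 to 1.15. The C1q limit removed 48 CEP and 43 Vehicle barcodes, of which 38 and 33 held 10 or more C1q UMIs. In those 38 and 33 barcodes the median depth was 11757.5 and 13771 UMIs, and Ikzf2 was seen in 30 and 23, Tnfrsf4 in 32 and 32 and Lyz2 in all. Just outside the limit, with 4 to 9 C1q UMIs, Ikzf2 was seen in 8 of 10 CEP and 9 of 10 Vehicle barcodes. Whether such barcodes hold 1 cell or several was not tested. When every barcode was thinned to 2000 UMIs, with shallower ones left out, members were 13 of 7294 (0.178%) in CEP and 29 of 7403 (0.392%) in Vehicle.

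**Figure D3:**
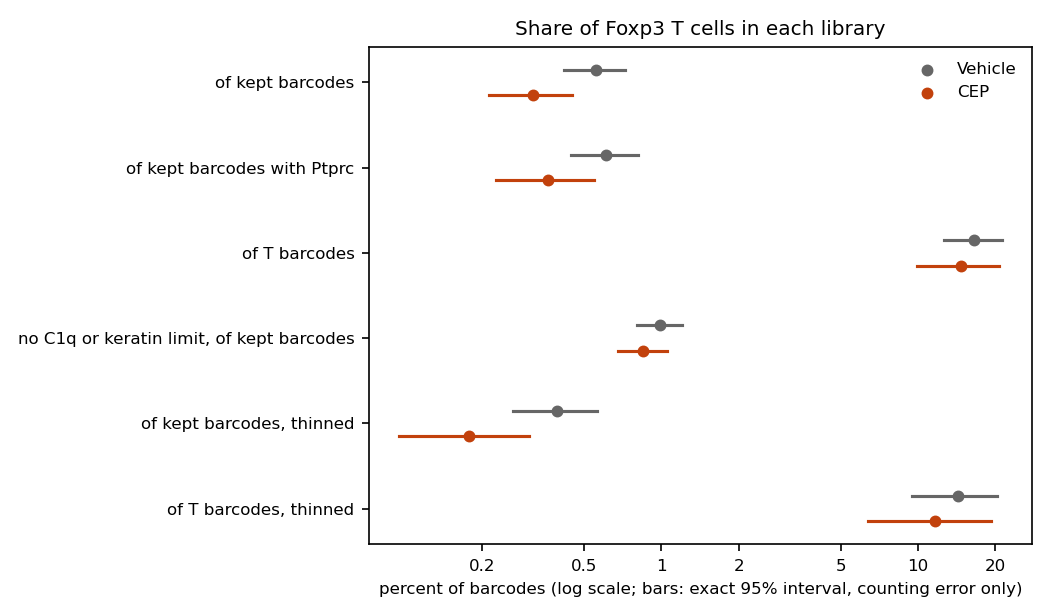
Share of Foxp3 T cells (horizontal axis, percent of barcodes, logarithmic) under each denominator or limit (vertical axis), grey for Vehicle and orange for CEP; points are shares and bars exact 95% intervals of counting error. The CEP share lies lower on all kept barcodes (0.314% against 0.554%), while the intervals overlap widely within T cells and when the C1q and keratin limits are lifted.

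Levels in members were set beside those in other T cells. The comparison was made with 26 CEP and 36 Vehicle Cd4 T cells without Foxp3 and with 47 and 72 Cd8 T cells. Because Foxp3 chose the cells, this contrast is a description with no test. Among 1869 genes with at least 30 UMIs in members, 81 (4.33%) were at least 2-fold above Cd4 T cells in both libraries, and 171 (9.15%) at least 2-fold above Cd8 T cells. Without the barcodes with myeloid RNA in any of these groups, 65 of 1155 genes (5.63%) and 149 (12.9%) were.

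Il2ra had 660 CPM in CEP and 548 CPM in Vehicle members against 44.4 and 86.4 CPM in Cd4 T cells. Ikzf2 had 660 and 760 CPM against 156 and 38.4 CPM. Ikzf4, which encodes the related factor Eos, had 136 and 101 CPM against 22.2 and 19.2. Members were thus above both kinds of comparison cell in both libraries for these 3 genes, since the Cd8 T cell levels were 119 and 92.8 CPM for Il2ra, 135 and 105 for Ikzf2 and 21.6 and 28.6 for Ikzf4. Klrg1 had 226 and 197 CPM in members, with 0 and 3 UMIs in the Cd4 T cells. Itgae, the CD103 integrin chain that binds E-cadherin, had 330 and 218 CPM in members, with 51 and 41 UMIs in 14 and 17 barcodes, against 0 and 2 UMIs in Cd4 T cells. It was seen in 10 of 21 CEP and 9 of 37 Vehicle members after thinning to 2000 UMIs, and in 0 of 21 and 1 of 20 Cd4 T cells treated alike.

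The TNF receptor family genes were shared with Cd4 T cells to different degrees. Tnfrsf9 (4-1BB, a costimulatory receptor induced by activation) had 1811 and 1866 CPM in members, 855 and 807 CPM in Cd4 T cells and 841 and 762 CPM in Cd8 T cells. Tnfrsf4 had 1307 and 1600 CPM in members and 966 and 557 CPM in Cd4 T cells, so that the 2-fold limit was passed in the Vehicle library alone. Tnfrsf18 (GITR) had 1029 and 1095 CPM against 877 and 720 CPM and did not pass it in either. Ctla4 passed it in both, with 1055 and 877 CPM against 278 and 327 CPM. Izumo1r, which encodes folate receptor 4, had 323 and 314 CPM against 144 and 106 CPM, and only 2.71 and 7.14 CPM in Cd8 T cells.

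Rln3, the gene of the peptide hormone relaxin-3, came next after Foxp3 when genes were ordered by the smaller of the 2 libraries' ratios to Cd4 T cells. It had 79 CEP and 61 Vehicle UMIs in members (511 and 324 CPM), in 11 and 14 barcodes, against 0 and 2 UMIs in Cd4 T cells and 16.2 and 0 CPM in Cd8 T cells. The richest barcode held 34.2% and 41.0% of these UMIs. Rln3 (chr8:84042929-84045000, minus strand) ends just before the start of Il27ra (chr8:84030294-84042589, minus strand), the interleukin-27 receptor gene, which had 104 and 69.1 CPM in members. Whether reads of the 2 neighbours were told apart by the authors' counting was not tested. Other genes in the same order were Dusp4, a MAP kinase phosphatase (246 and 213 CPM against 55.5 and 38.4), the small GTPase gene Rhof (97.0 and 154 against 11.1 and 28.8), Sgk1, Vrk1 and Rhoc. S100a9, S100a8, Retnlg, Wfdc17, Ccl7, Ccl4 and Cd300lf were on the same list, and none of these 7 was on it without the barcodes with myeloid RNA. S100a9 and S100a8 were among the genes that marked those barcodes, so their absence was set in part by the choice. Without those barcodes Hopx, Itgav, Zfc3h1, Cd81, Swap70, Sdc4, Lamc1, Areg, Chchd10 and Bmyc were among the genes that entered it, Sgk1, Rhoc and Vrk1 were no longer on it, and Foxp3, Rln3, Itgae, Il2ra and Klrg1 were its first 5 genes.

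Other genes were lower in members. Of 897 genes with at least 30 UMIs in Cd4 T cells, 22 (2.45%) were at least 2-fold lower in members in both libraries. The UMI limit was set in Cd4 T cells here and in members for the higher genes, each the group where the called genes are high. The counts of higher and lower genes are therefore not comparable. Tnfsf8, the CD30 ligand, had 0 UMIs in members of both libraries against 30 and 15 UMIs (333 and 144 CPM) in Cd4 T cells. Cxcr6, a receptor of tissue-resident T cells, had 1 UMI in each library in members against 189 and 355 CPM. Tcf7, which encodes the TCF-1 factor of naive and memory T cells, had 12.9 and 21.3 CPM against 144 and 211 CPM, and the survival gene Bcl2 25.9 and 15.9 against 156 and 192 CPM. Ramp3, a receptor activity-modifying protein gene, had 32.3 and 37.2 CPM against 533 and 471 CPM. Il13 was at 0 UMIs in members, and in Cd4 T cells it had 49 Vehicle UMIs in 5 barcodes and 1 CEP UMI. Its place among the lower genes thus rested on 1 UMI in the CEP library. Lgals7, Map4k4, Fam102a and Dusp10 completed the 10 lowest. Among cytokine genes, Il2, Il4, Il5, Il17a, Il21 and Il22 were also at 0 UMIs in members.

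**Figure D4:**
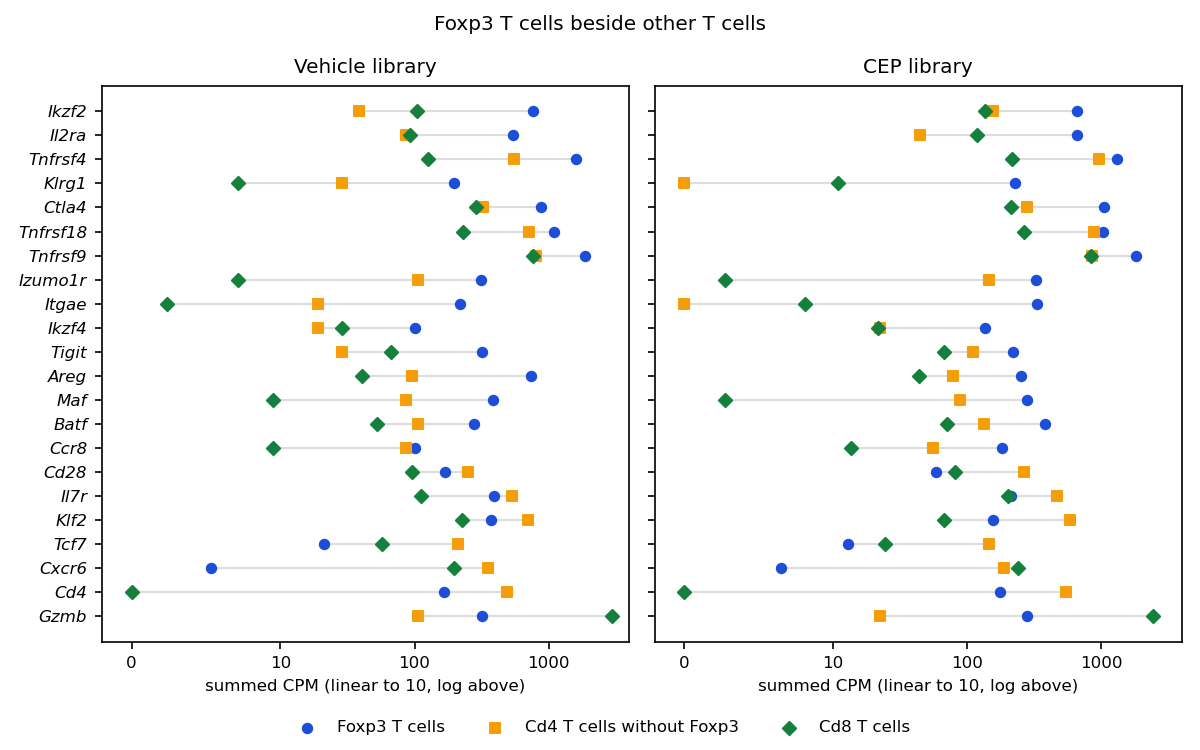
Summed CPM (horizontal axis, linear to 10 and logarithmic above) of 22 genes in Foxp3 T cells (blue circles), Cd4 T cells without Foxp3 (orange squares) and Cd8 T cells (green diamonds), in the Vehicle (left) and CEP (right) library. Foxp3 T cells lie to the right of both other kinds of cell for genes such as Il2ra, Itgae and Ctla4, and to the left of Cd4 T cells for Tcf7 and Cxcr6.

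Levels of the defining genes were then set side by side between the libraries. Foxp3, which chose the members and is given as a description, had 103 UMIs (666 CPM) in CEP and 144 UMIs (765 CPM) in Vehicle, a log2 ratio of -0.20 with a 95% counting interval of -0.58 to 0.17, and 0.20 without the barcodes with myeloid RNA. For the other markers the log2 ratio of CEP over Vehicle was -0.20 for Ikzf2 (-0.58 to 0.17), 0.27 for Il2ra (-0.14 to 0.68), -0.29 for Tnfrsf4 (-0.56 to -0.03) and 0.20 for Klrg1 (-0.51 to 0.91). None of these 4 reached 2-fold, and the intervals of 3 of them hold 0. Of 15 identity genes, Foxp3 included, 11 had at least 30 UMIs. Their median log2 ratio was 0.17 (0.23 over 11 without those barcodes), beside 0.01 over all 1869 genes, with 7 above and 4 below that value, which splits all genes at 50%, and none at 2-fold. Ctla4 stood at 0.27 and Cd5, a brake on T cell receptor signals, at 0.34.

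Across all genes, 36 of 1869 (1.93%) were at least 2-fold higher in CEP members and 83 (4.44%) at least 2-fold lower. Without the barcodes with myeloid RNA, 21 of 1155 (1.82%) were higher and 47 (4.07%) lower, and 5 and 26 genes were called both ways of counting. The largest differences rested on few barcodes. Retnlg had 8 CEP and 416 Vehicle UMIs, and 99.8% of the Vehicle UMIs lay in the richest barcode. The neutrophil genes Lcn2 (0 and 171 UMIs), Ifitm6 (0 and 133) and Ngp (0 and 43) had 87.1%, 100% and 100% of their Vehicle UMIs in a single barcode, and with 3 UMIs as the floor they were at least 46.8-fold, 36.4-fold and 11.8-fold lower in CEP. Cstdc5, Cstdc4, Saa3, Stfa2, Stfa2l1, Hp and Lrg1 had between 0 and 1 CEP UMIs and from 31 to 91 Vehicle UMIs, of which the richest barcode held 51.6 to 98.1%. Among the higher genes, Inhba (34 and 1 UMIs), Mmp12 (41 and 2), Vegfa (54 and 11) and Ccl4 (31 and 10) were seen in 2, 4, 5 and 4 CEP barcodes. Without the 14 barcodes, Inhba, Mmp12, Vegfa and all of these neutrophil-type genes had 3 UMIs or fewer in each library.

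A few differences kept their direction without those barcodes. Dusp14, a phosphatase that acts in T cell receptor signalling, had 32 CEP UMIs (207 CPM) in 8 barcodes and 9 Vehicle UMIs (47.8 CPM) in 5, a log2 ratio of 2.06 (1.01 to 3.37), and 2.09 without the 14 barcodes. Of its CEP UMIs, 12 lay in a single barcode and 9 in another, both outside the 14. By mean CPM per barcode Dusp14 stood at 1.25. In Cd4 T cells it had 33.3 and 28.8 CPM and in Cd8 T cells 62.2 and 47.6 CPM. The elongation factor gene Ell2 was at 1.53 and at 1.90 without them, the serine protease gene Klk8 at 1.59 and 1.60, Trim25, a ubiquitin ligase of the interferon response, at 1.71 and 1.62, Ifit1, an interferon-induced gene, at 2.20 and 1.62, and Dnajc2 at 1.69 and 1.05. Of these 6 genes only Dusp14 still had 30 UMIs there, and the CEP UMIs went from 24 to 11 for Ifit1, from 25 to 11 for Trim25 and from 22 to 10 for Dnajc2. Il1rn, the interleukin-1 receptor antagonist gene, was at 1.56 over all barcodes and at 0.85 without the 14, with 5 and 4 UMIs left. The same rule without the barcodes with myeloid RNA led with Dusp14, Vdac2 (1.54), Cib1 (1.53), Hopx (1.36), Smap2 (1.32), Ass1 (1.28) and Hilpda (1.27). Hopx was at 0.02 over all barcodes. Hilpda, a lipid droplet gene induced by hypoxia, had 718 and 346 CPM in members, 289 and 980 CPM in Cd4 T cells and 617 and 390 CPM in Cd8 T cells.

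Lars2, the mitochondrial leucyl-tRNA synthetase gene, was lower in CEP and was spread over nearly all members. It had 2031 CPM in CEP and 5603 CPM in Vehicle members and was seen in 30 of 30 and 54 of 55 barcodes, a log2 ratio of -1.46 (-1.65 to -1.28), and -1.72 without the 14 barcodes. It was also lower in CEP in Cd4 T cells (1977 and 4476 CPM) and in Cd8 T cells (2199 and 3578 CPM). Pf4, the platelet factor 4 chemokine gene, had 1 CEP and 164 Vehicle UMIs, of which 114 lay in a single barcode outside the 14. That barcode held 8 UMIs of the genes that marked the 14, under the limit of 10. Pf4 was also seen in 59.3% of CEP and 59.8% of Vehicle macrophage barcodes. Ccl8 had 3 and 60 UMIs, 49 of them in 1 Vehicle barcode. Without the 14 barcodes Metrnl (-2.41), Nfil3 (-1.97), Hist1h1e (-1.72), Fcer1g (-1.72), Rasgrp1 (-1.67), Sdc4 (-1.67) and Arg1 (-1.65) followed Pf4, Ccl8 and Mki67, together with Rgs16 (5 and 32 UMIs). The richest Vehicle barcode held 16 of the 32 Rgs16 UMIs, 15 of 31 for Hist1h1e, 15 of 25 for Arg1 and 12 of 31 for Fcer1g. It held at most 5 UMIs for Metrnl, Nfil3, Rasgrp1 and Sdc4. Over all barcodes Fcer1g stood at -0.03 and Arg1, the arginase 1 gene, at 0.86. Rasgrp1, which links the T cell receptor to Ras, was seen in 5 of 24 CEP and 18 of 47 Vehicle barcodes.

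**Figure D5:**
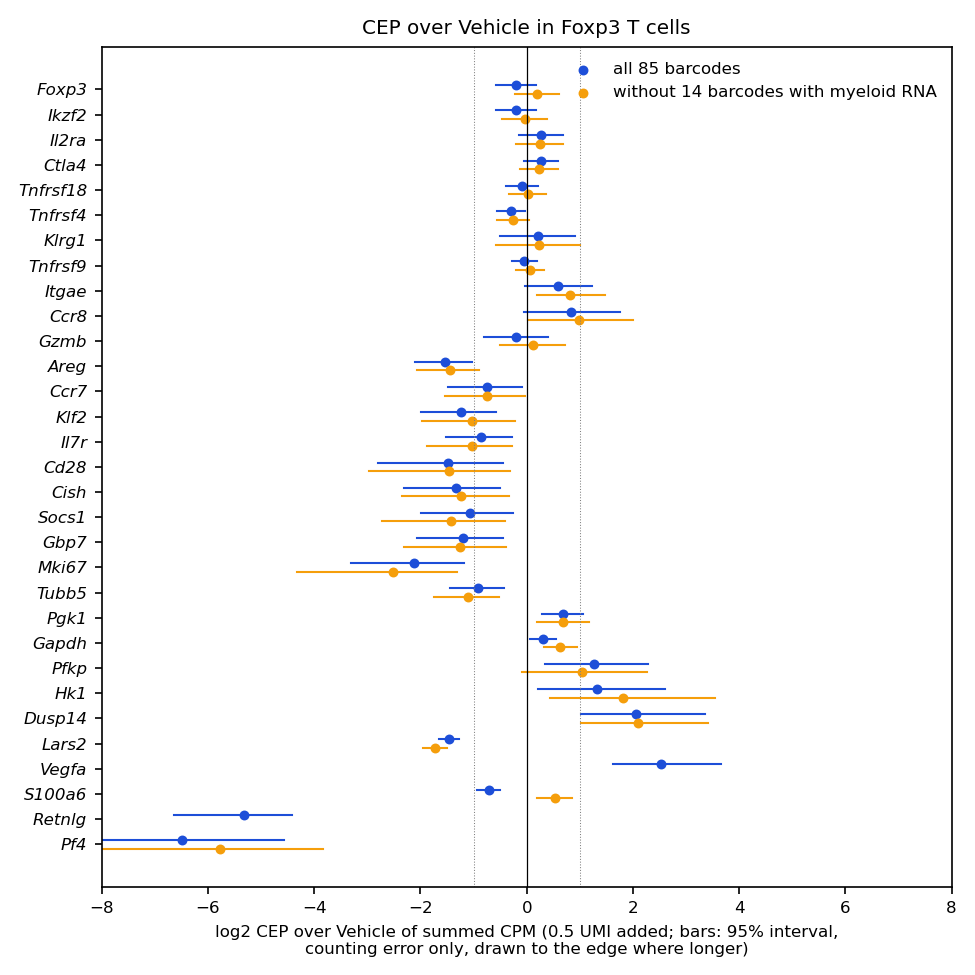
Log2 ratio of summed CPM, CEP over Vehicle (horizontal axis, 0 for equal levels, dotted lines at 2-fold), for 31 genes in Foxp3 T cells; blue points use all 85 barcodes, orange points leave out the 14 with myeloid RNA, and bars are 95% counting intervals. Marker genes from Foxp3 to Tnfrsf9 lie between -0.29 and 0.27 over all barcodes, and Vegfa and Retnlg have no orange point because too few UMIs are left.

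Suppressive and tissue-repair genes showed no common direction. Of 16 suppressive effector genes 7 had at least 30 UMIs, with a median log2 ratio of 0.13 (0.17 without the barcodes with myeloid RNA), 5 above the all-gene median and 2 below. Areg, the epidermal growth factor family ligand by which regulatory T cells take part in tissue repair, was at least 2-fold lower in CEP. It had 39 UMIs (252 CPM) in 13 CEP members and 139 UMIs (739 CPM) in 22 Vehicle members, a log2 ratio of -1.54 (-2.10 to -1.03), and -1.44 without those barcodes. The share of members with Areg was 43.3% in CEP and 40.0% in Vehicle, and the 2 richest Vehicle barcodes held 32 and 23 UMIs. Areg had 77.8 and 96.1 CPM in Cd4 T cells and was seen in 5.95% and 5.00% of macrophage barcodes. Gzmb, the granzyme B gene, stood at -0.19 (43 and 60 UMIs), Tgfb1 at 0.20 (50 and 53 UMIs), the immunoregulatory lectin gene Lgals1 at 0.45 (428 and 380 UMIs) and Penk, which encodes proenkephalin, at 0.13 (52 and 58 UMIs).

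Genes of tumour-activated regulatory T cells were divided. Of 20 such genes 18 had at least 30 UMIs, with a median of -0.07 (0.17 over 16 genes without the barcodes with myeloid RNA), 8 above and 10 below the all-gene median, and none at 2-fold. Ccr8, a chemokine receptor typical of tumour regulatory T cells, had 28 and 19 UMIs (log2 ratio 0.83, -0.05 to 1.76), Itgae 0.59 (-0.02 to 1.23) and the factor Batf 0.46 (-0.10 to 1.03). Tnfrsf1b, the TNF receptor 2 gene, stood at -0.87 (-1.72 to -0.10) and at -0.38 without those barcodes. S100a6 stood at -0.71 with all barcodes and at 0.52 without the 14.

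Resting T cell genes lay lower in CEP members. All 5 of the 13 listed genes that had at least 30 UMIs were below the all-gene median, with a median of -0.76 (-0.88 over the 4 left without the barcodes with myeloid RNA). Klf2, a factor of T cell quiescence and recirculation, had 24 and 70 UMIs (155 and 372 CPM, log2 ratio -1.24, -1.99 to -0.57) in 10 CEP and 28 Vehicle barcodes. It also had 67.6 and 226 CPM in Cd8 T cells and 589 and 701 CPM in Cd4 T cells. Il7r, the interleukin-7 receptor, stood at -0.87 (33 and 74 UMIs), the lymph node homing receptor Ccr7 at -0.76 (27 and 56 UMIs, and 1.11 when members with any C1q UMI were left out) and the chromatin organiser Satb1 at -0.45 (16 and 27 UMIs).

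Interleukin-2 and costimulation genes were mostly below the all-gene median. Of 15 genes of the interleukin-2 receptor and STAT5 pathway 10 were measured, 1 above and 9 below, with a median of -0.38 (-0.41 over 8 genes without the barcodes with myeloid RNA). Cish, a STAT5-induced inhibitor of cytokine signalling, had 15 and 47 UMIs in 9 and 33 barcodes (log2 ratio -1.33, -2.31 to -0.50, and -1.24 without those barcodes). Socs1 stood at -1.06 and -1.42, and Socs3, another inhibitor of this kind, at -1.14 and -0.31. The receptor chains themselves were nearer 0, with Il2rb at -0.11 and Il2rg at -0.26. All 8 measured of 13 costimulatory receptor genes were below the all-gene median (median -0.33, and -0.26 over 7 without those barcodes), among them Cd28 at -1.49 (9 and 32 UMIs, 7 and 19 barcodes), Icos at -0.36, Cd2 at -0.40 and Tnfrsf9 at -0.04. Of 17 T cell receptor response genes 10 were measured, 1 above and 9 below (median -0.37, and -0.20 over 8 without those barcodes), with Nr4a1 at 0.18, Nfkbid at -0.69 and Zfp36l1 at -0.58. The receptor complex, whose Cd3d, Cd3e and Cd3g were used to choose the members, had a median of -0.08 over 17 genes and 0.06 over 14 without the barcodes with myeloid RNA.

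For the NF-kB and protein kinase C axis, which the series title names, 8 of 18 genes were measured and had a median of -0.04 (-0.10 over 6 without the barcodes with myeloid RNA), with 3 above the all-gene median. The protein kinase C genes on the list had fewer than 30 UMIs each, with 3 and 6 for Prkcz, 0 and 1 for Prkci and 4 and 13 for Prkcq. Parp1, a DNA damage response enzyme gene, had 19 and 4 UMIs (log2 ratio 2.40, 0.94 to 4.55), below the 30 UMI minimum for a call. Nfkbia, the NF-kB inhibitor gene that NF-kB itself induces, had 1527 and 2100 CPM (log2 ratio -0.46, -0.70 to -0.22). Rel, the subunit needed for regulatory T cell development, stood at -0.49 (-1.01 to 0.01) and Nfkb1 at 0.43 (-0.24 to 1.10). Malt1, which carries antigen receptor signals to NF-kB, stood at -0.76 (-1.49 to -0.08), and at -0.01 when members with any C1q UMI were left out.

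Interferon response genes were described in 2 lists, and the difference between the lists was not tested. Of 25 interferon-gamma response genes 16 were measured, with a median of -0.51 (-0.38 over 9 without the barcodes with myeloid RNA), 5 above and 11 below. Over the processing alternatives this median ran from -0.58 to 0.01. The guanylate-binding protein genes Gbp7 (19 and 54 UMIs, log2 ratio -1.20, -2.06 to -0.45) and Gbp6 (7 and 23 UMIs, -1.36) were at least 2-fold lower, and so were Irf8 (-1.16) and Socs1. After thinning to 2000 UMIs they stood at -1.08 (Gbp7), -0.54 (Gbp6), -0.10 (Irf8) and -0.13 (Socs1). Cxcl10 was higher at 1.31 but was seen in only 5 CEP and 6 Vehicle barcodes and stood at 0.26 without those with myeloid RNA. Of 21 type I interferon genes 10 were measured, with a median of 0.13 (-0.03 over 6). Isg15 had 841 and 420 CPM, and its log2 ratio was 0.47 without those barcodes, and Ifi27l2a, the listed gene with most UMIs in members, at -0.22. Of 17 class I antigen presentation genes 16 were measured, with a median of 0.13 (0.11 over 16), 9 above and 7 below.

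Glycolysis genes lay higher in CEP members, and cell division genes lower. Of 16 glycolysis genes 13 were measured, 12 above and 1 below the all-gene median, with a median of 0.34 (0.54 over 9 genes, all above, without the barcodes with myeloid RNA). Pgk1 had 867 and 542 CPM (0.68, 0.29 to 1.06), Gapdh 1837 and 1483 CPM (0.31, 0.07 to 0.55) and Ldha 1669 and 1382 CPM (0.27, 0.02 to 0.53). Hexokinase 1 (Hk1) and the phosphofructokinase gene Pfkp reached 2-fold, at 1.32 with 21 and 10 UMIs (1.81 without the barcodes with myeloid RNA) and at 1.26 with 30 and 15 UMIs. Pgk1 in Cd8 T cells was at 695 and 709 CPM. Of 24 cell cycle genes 8 were measured, 2 above and 6 below, with a median of -0.76 (-1.11 over 6, all below). The proliferation marker Mki67 had 10 CEP UMIs in 5 barcodes and 55 Vehicle UMIs in 7 (log2 ratio -2.12, -3.31 to -1.19). Of those UMIs 23, 18 and 9 lay in 3 Vehicle barcodes. Members with a UMI of Mki67, Top2a, Cdk1 or Birc5 were 8 of 30 in CEP and 10 of 55 in Vehicle, so the levels and the share of barcodes with a UMI had opposite orders.

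Of 14 checkpoint receptor genes 3 were measured, with a median of -0.53 (-0.32 over 3 without the barcodes with myeloid RNA). Tigit had 34 and 60 UMIs (log2 ratio -0.53, -1.19 to 0.09) and was seen in 19 and 31 members. Pdcd1, the PD-1 gene, had 23 and 46 UMIs (-0.70, -1.51 to 0.04) in 8 and 18 members, and stood at -1.26 without those barcodes. Of the TGF-beta pathway genes 6 of 14 were measured, with a median of 0.22 (-0.12 over 5 without the barcodes with myeloid RNA), and the inhibitory Smad7 stood at -0.86 (-1.53 to -0.24). Lineage factors of helper T cells were below the all-gene median in all 4 measured cases (median of -0.79 over 3 without those barcodes), with Maf at -0.47, Rora at -0.08 and the aryl hydrocarbon receptor gene Ahr at -1.09 (14 and 37 UMIs). Ahr ran from -2.55 after thinning to -0.0004 when members with any C1q UMI were left out. The median of this list ran from -0.58 to 0.21 over the processing alternatives. Among 11 measured homing receptor genes the median was -0.29, and 0.35 over 8 without the barcodes with myeloid RNA. Itgb1, an adhesion integrin chain, was at least 2-fold lower at -1.14 (9 and 25 UMIs), and stood at -2.90 without them, with 1 and 16 UMIs left. Genes induced by tissue digestion and heat had a median of -0.30 over 18 genes and -0.09 over 15 without those barcodes.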

How the data were processed

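Raw UMI counts per gene and barcode were deposited by the authors for each library. The submitters' processing notes name the build mm10 and Cell Ranger 5.0.1, and the headers of the files give 7.1.0 as the version. No source used here says if introns were counted, which affects genes with long introns. The libraries held 88721774 (CEP) and 81208647 (Vehicle) UMIs, members 154572 and 188124. The 2 libraries shared 136 barcode sequences, none of them a member's.

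UMIs were summed over members per library, and CPM taken of the sum. Log2 ratios had 0.5 UMIs added to each library. A gene was called at 2-fold with at least 30 UMIs over both libraries, without a test. Shares have exact binomial intervals, ratios of sums exact conditional binomial intervals and ratios of shares log-normal ones (95%, counting error only). With 3 UMIs as the limit that a count of 0 allows, lower bounds were set. Scrublet (scanpy 1.11.5) marked 1 and 2 barcodes on its automatic threshold and had not worked, so doublets were kept, and an alternative left out the highest 8% of scores (702 and 777 barcodes, 0 and 3 of them members). This alternative kept all 6 CEP members with myeloid RNA and the Vehicle member with 1018 S100a9 UMIs, so mixed barcodes remained in it. In bulk sums, fewer expressing cells and less RNA per cell cannot be told apart except by the counts of barcodes.

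Named genes were the markers, the 12 called genes with the largest ratio in each direction whose interval leaves 1, the 20 highest and 10 lowest against Cd4 T cells (without ribosomal, mitochondrial, haemoglobin, receptor segment and unnamed models), and list members by UMIs or by call. The members and lists were chosen with earlier results of these data known. Gene positions are from GENCODE. The ratio and its intervals were tested on simulated data. There each gene's library total was drawn as an independent Poisson count without barcodes. Genes whose UMIs gather in few barcodes were therefore not covered by it. Some items are not reported here.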

Additional observations from a re-analysis of the deposited data

How the results depend on the processing

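No paired analysis was possible because each group is 1 library and cells carry no animal label; no replicate could be left out for the same reason. The Treg share of kept barcodes stayed lower in CEP in every alternative listed beforehand, with log2 ratios from -1.14 (thinned to 2000 UMIs) to -0.45 (Foxp3 at least 2 UMIs), and was -0.22 with no C1q or keratin limit. The share of T cells, -0.18, turned to 0.13 with Foxp3 at least 2 UMIs and to 0.08 with C1q of 0. Counts of genes, in the order higher in CEP, lower in CEP, above Cd4 and above Cd8 T cells, were 36, 83, 81 and 171. They were 79, 166, 123 and 261 with a minimum of 20 UMIs, 2, 16, 20 and 47 with 100 UMIs, and 9, 27, 42 and 64 after thinning, which leaves fewer UMIs. With C1q of 0, which leaves fewer barcodes, the last 2 were 52 and 98. Mean CPM per barcode gave 73 higher genes, and leaving out barcodes with myeloid RNA 21 higher and 47 lower. Among genes called at 2-fold, directions reversed for Ccl4 (-3.32), H2-Aa (0.59) and H2-Eb1 (0.35) with C1q of 0, for Ccl5 without likely doublets (1.31), by mean CPM (0.25) and without barcodes with myeloid RNA (1.62), and for G0s2 after thinning (0.45). Against Cd4 T cells without the latter barcodes, S100a9 turned to -1.13 and S100a8 to -1.83. Genes short of 2-fold also changed sign, among them Cd74 (-0.93 to 1.13) and Ccr7 (-0.76 to 1.11) with C1q of 0 and Arg1 (0.86 to -1.65), Lyz2 (0.51 to -1.60) and S100a6 (-0.71 to 0.52) without barcodes with myeloid RNA. Lyz2, S100a8 and S100a9 were among the genes that marked the barcodes with myeloid RNA, so their changes without those barcodes were set in part by the choice. For the other genes the cause was not tested. Genes with 3 or fewer UMIs on both sides under an alternative have no value there. With 85 barcodes, depth limits most single genes to differences of 2-fold or more.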

Other observations

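Klrg1 and Ccr8 were seen together to a different extent in the libraries. Of the 12 CEP members with a Klrg1 UMI, 9 also held a Ccr8 UMI, against 3 of the 18 without Klrg1. Of the 17 Vehicle members with Klrg1, 3 held Ccr8, against 11 of 38 without. The CEP members with Klrg1 had a median depth of 5373.5 UMIs and those without 2581.5, while in Vehicle the medians were 2559 and 2150, and the part of depth in this difference was not tested. Il2ra was seen in 12 of 12 CEP and 13 of 17 Vehicle members with Klrg1. The pair was chosen after its values were seen.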
